A study of Mus musculus with 4 samples.

Results

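The 10 genes described here encode enzymes of glycolysis: Hk2, Aldoa, Aldoc, Tpi1, Pgk1, Eno1, Eno2, Pkm, Ldha and Ldhb. They were chosen by name, and each symbol matched 1 of the 43346 features of the deposited count tables. Single-cell RNA sequencing on the 10x Genomics platform counted their transcripts in cells from 4 regions of the wild-type mouse brain at embryonic stage E12.5. A library was made from the cortex (CTX), the source of excitatory neurons. The other 3 came from the ganglionic eminences of the ventral forebrain, the source of inhibitory neurons, namely the lateral (LGE), the medial (MGE) and the caudal (CGE) eminence. The mice (C57BL/6 in the study's methods) carried no engineered allele and received no treatment, and the study's methods describe tissue pooled from several embryos. A region therefore had no replicate, so values of different regions are given with 95% intervals that cover counting error only and with no test.

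Progenitors and young neurons were separated by the genes the study used. Cells with ln(1 + UMIs per 10000) above 1.5 for Nes, an intermediate filament of neural progenitors, were called high-Nestin, and cells above 1.5 for Dcx, a microtubule-binding protein of young neurons, were called high-Dcx. A UMI is a molecular tag that counts 1 captured transcript, and the gate corresponds to 348 counts-per-million (CPM). The high-Nestin class held 888 cells in CTX and 586, 514 and 165 in LGE, MGE and CGE. The high-Dcx class held 786 cells in CTX and 2043, 2176 and 2270 in LGE, MGE and CGE. Cells past both gates (16 in CTX and 73, 25 and 17 in LGE, MGE and CGE) were left out of both classes.

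Glycolysis splits glucose into pyruvate in the cytosol and yields ATP without oxygen. Hexokinases start it by trapping glucose as a phosphate, aldolases cut the resulting sugar into trioses, triose phosphate isomerase interconverts these, and phosphoglycerate kinase, enolase and pyruvate kinase carry them to pyruvate. Lactate dehydrogenase then interconverts pyruvate and lactate. Several steps have isozymes from separate genes: Ldha encodes the subunit linked to lactate production and Ldhb the subunit linked to lactate use, Eno2 is the enolase of neurons, Aldoc is the aldolase known from astrocytes and radial glia, and Hk2 is the inducible hexokinase beside the widely expressed Hk1. Proliferating progenitors are known for high glycolysis, and neurons for oxidative metabolism.

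Genes of this pathway are textbook targets of hypoxia-inducible factor and of MYC, whose core motifs are known. RefSeq promoters (250 bases before to 50 bases after a transcript start, GRCm38.p6) were matched by symbol for all 10 genes, 17 promoters in all, and were searched on both strands for ACGTG or GCGTG, the core of the hypoxia-response motif, and for CACGTG, the E-box bound by MYC, each of which also contains ACGTG on both strands and so counts as 2 core matches. At least 1 core match stood in 13 of the 17 promoters and in a promoter of 8 of the 10 genes, and 43.8% of all 32851 promoters of this length held at least 1. Some promoters of Aldoa and of Eno1 overlap and share their matches, so the 13 counts some sites more than once. A gene had up to 3 promoters, so the count per gene cannot be set against the share per promoter. The bases before the start are printed for the 4 genes with the largest fold changes between the classes, Aldoc, Hk2, Eno2 and Ldha, and for Ldhb, the partner isozyme of Ldha. Capitals mark the core matches.
Hk2 (chr6:82774455-82774704, minus strand): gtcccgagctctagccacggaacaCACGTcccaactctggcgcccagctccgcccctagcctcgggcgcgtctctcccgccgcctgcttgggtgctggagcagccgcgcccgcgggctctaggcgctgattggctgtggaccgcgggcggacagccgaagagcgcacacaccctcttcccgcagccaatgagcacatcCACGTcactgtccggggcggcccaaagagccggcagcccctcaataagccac
Aldoc, first of 2 promoters (chr11:78322823-78323072, plus strand): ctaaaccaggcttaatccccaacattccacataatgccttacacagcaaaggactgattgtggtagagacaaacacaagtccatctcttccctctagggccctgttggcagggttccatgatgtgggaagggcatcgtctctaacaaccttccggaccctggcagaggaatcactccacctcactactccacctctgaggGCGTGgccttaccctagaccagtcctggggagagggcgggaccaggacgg
Eno2 (chr6:124769674-124769923, minus strand): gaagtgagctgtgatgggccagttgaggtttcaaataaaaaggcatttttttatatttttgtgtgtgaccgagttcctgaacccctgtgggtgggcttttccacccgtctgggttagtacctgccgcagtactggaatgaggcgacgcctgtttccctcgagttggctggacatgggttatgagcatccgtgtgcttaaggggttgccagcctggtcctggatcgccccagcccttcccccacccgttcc
Ldha, first of 2 promoters (chr7:46845554-46845803, plus strand): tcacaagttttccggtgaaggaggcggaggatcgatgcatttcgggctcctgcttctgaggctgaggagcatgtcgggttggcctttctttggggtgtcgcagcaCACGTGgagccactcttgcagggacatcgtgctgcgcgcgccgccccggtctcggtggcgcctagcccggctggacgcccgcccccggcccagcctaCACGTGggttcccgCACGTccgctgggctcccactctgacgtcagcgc
Ldhb (chr6:142507958-142508207, minus strand): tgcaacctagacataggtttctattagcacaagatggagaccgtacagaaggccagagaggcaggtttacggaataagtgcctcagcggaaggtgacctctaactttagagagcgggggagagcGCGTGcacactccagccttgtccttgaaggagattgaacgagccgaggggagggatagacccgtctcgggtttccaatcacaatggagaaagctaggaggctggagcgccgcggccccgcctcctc
The first Ldha promoter held 7 core matches over its 300 bases, the most of the 17 promoters, and 0.301% of all promoters held 7 or more. Of the 7, 5 lay in the stretch printed. Its 2 E-boxes began 145 and 48 bases before the start, and 0.594% of all promoters held 2 or more. The second Ldha promoter held 2 core matches and 0 E-boxes. The Ldhb promoter held 1 core match, the Hk2 promoter 2 and the first Aldoc promoter 3 (8.93% of all promoters held at least 3), of which 1 lay before the start. The Eno2 promoter held none, nor did that of Tpi1. A match is a run of letters, and binding of a factor was not measured.

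The libraries held 4301 to 6953 barcodes and 31451467 to 49794765 UMIs, of which 3201 to 4754 cells passed the filters at a median of 6935 to 8233.5 UMIs per cell. Any pair of libraries shared 4 to 15 barcodes before the filters. The median depth of high-Nestin cells was 8417.5 to 9902 UMIs and that of high-Dcx cells 6344 to 7915. The labels describe sorting for live cells (DRAQ5+/DAPI-) and the methods describe wild-type cells as unsorted, which was not settled. Beyond the gate genes, the classes carried the markers of their names: 5 of 7 progenitor markers were higher in high-Nestin cells and 6 of 6 markers of young neurons were lower. Several other things moved with the classes. The summed level of 6 cell cycle genes was 2203 to 3213 CPM in high-Nestin and 570 to 2034 CPM in high-Dcx cells, that of 8 dissociation response genes 181 to 489 against 35.5 to 66.1 CPM, that of 6 endothelial markers 6.60 to 61.9 against 0.907 to 3.31 CPM, that of 7 pericyte markers 17.3 to 88.4 against 0.845 to 6.93 CPM, and that of 6 microglial markers 0.399 to 166 against 0.318 to 10.8 CPM. Endothelial Cldn5, Cdh5 and Kdr were at 0 in CGE high-Nestin cells, and microglial C1qa, C1qb, C1qc and Cx3cr1 were at 0 in LGE high-Nestin cells. The class counts given next were the same with non-neural cells removed, and the part of the dissociation response in them was not tested.

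High-Nestin cells carried more glycolysis transcript than high-Dcx cells in every library. The 10 genes together took 4695 CPM in CTX and 3242, 2812 and 2953 in LGE, MGE and CGE high-Nestin cells. In high-Dcx cells they took 2467, 1535, 1578 and 1393 CPM, so the ranges of the classes did not overlap. To test each gene, UMIs were summed per library and class and compared with edgeR's quasi-likelihood test with the library as a block, with Benjamini-Hochberg adjustment over all 12357 genes tested. The 4 regions stand in for replicates there. Its p-values set the difference between the classes within a library against how much such differences varied between the libraries. edgeR estimates that variation for a gene partly from the other genes. A small p-value is therefore not a measure of agreement between the 4 libraries alone. All 10 genes passed the filter on low counts. Of these, 8 were higher in high-Nestin cells (Hk2, Aldoa, Aldoc, Tpi1, Pgk1, Eno1, Pkm and Ldha), where 27.9% of all genes tested were called higher, 1 was lower (Eno2), where 28.0% of all genes were called lower, and 1 (Ldhb) was not called. The median log2 difference of the 10 genes was 1.14, against -0.01 over all genes tested. The values of the 4 libraries did not overlap between the classes for 8 of the 10 genes, all but Aldoc and Ldhb, beside 47.8% of all genes tested.

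**Figure D1:**
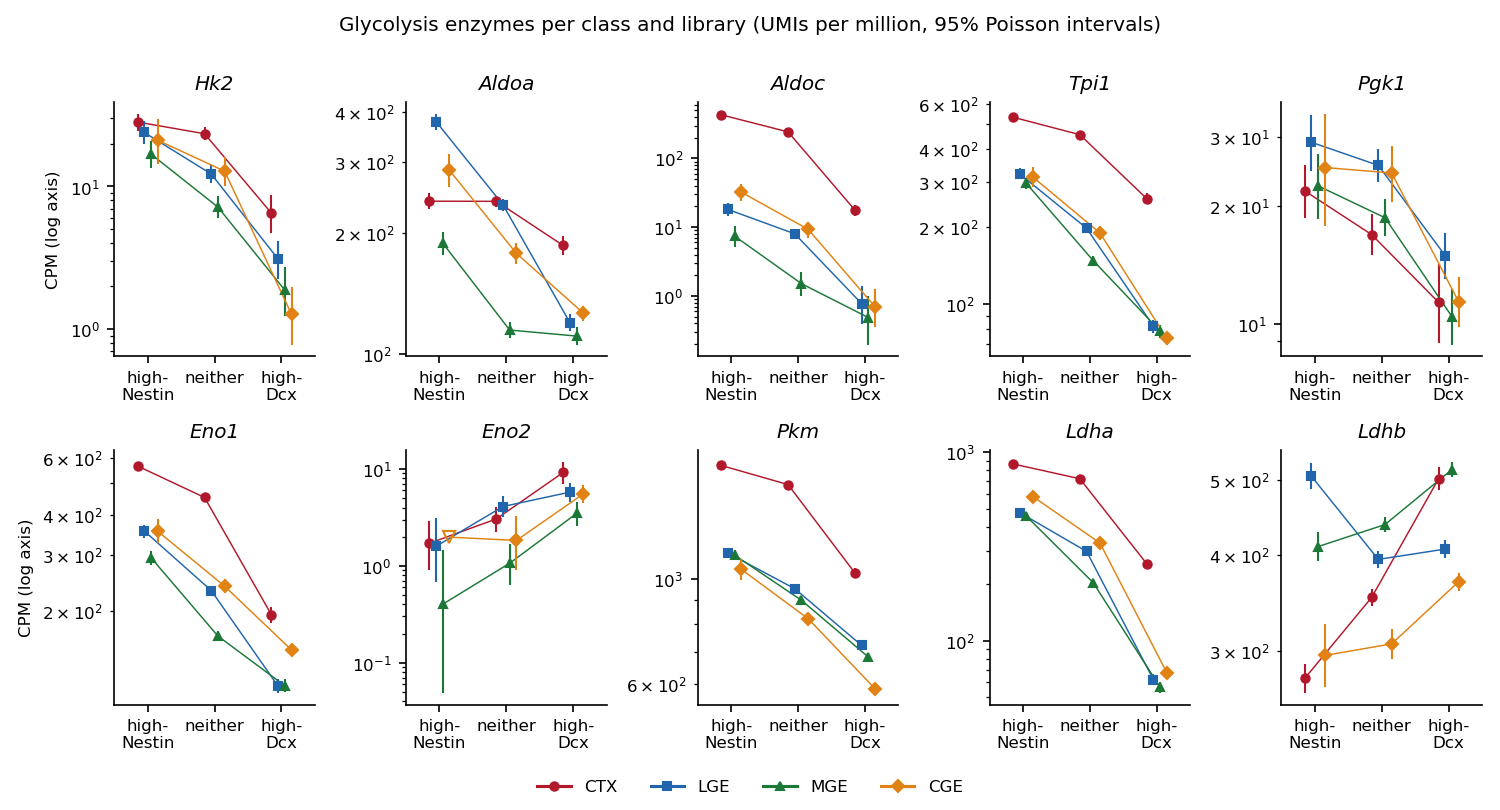
Level of each of the 10 genes in CPM (log axis) in high-Nestin cells, cells past neither gate and high-Dcx cells, with 1 point per library and exact Poisson 95% intervals (the open triangle for Eno2 in CGE marks the level of 3 UMIs where none was counted). In all genes but Aldoc and Ldhb the 4 high-Nestin points lie apart from the 4 high-Dcx points, and Eno2 is the gene whose 4 high-Dcx points lie above.

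The first step is the work of Hk2 (GRCm38, as for all genes here, chr6:82725025-82774454, minus strand). High-Nestin cells held it at 28.3 CPM in CTX and 23.9, 16.9 and 21.1 in LGE, MGE and CGE, and high-Dcx cells at 6.498, 3.10, 1.88 and 1.27 CPM. It was low in both classes and 4.36 to 16.6 times higher in high-Nestin cells, with a log2 difference of 2.91 (SE 0.33, edgeR adjusted p = 0.001074). Its partner Hk1, outside the 10 genes, went the other way, from a mean of 18.1 CPM in high-Nestin to 30.0 CPM in high-Dcx cells (log2 difference -0.78, edgeR adjusted p = 0.005975).

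Both aldolases were higher in high-Nestin cells, by very different amounts. Aldoa (chr7:126795234-126800751, minus strand), the widespread isozyme, stood at 240 CPM in CTX and 378, 189 and 286 in LGE, MGE and CGE high-Nestin cells. In high-Dcx cells it stood at 186, 120, 111 and 127 CPM. The classes came closest in CTX, at a ratio of 1.29, and lay furthest apart in LGE, at 3.15 (log2 difference 0.90, SE 0.21, edgeR adjusted p = 0.01336). Without the CGE library the adjusted p of Aldoa was 0.0609. Fam57b overlaps Aldoa on the other strand and held 9319 UMIs against 22400 of Aldoa, and whether reads were counted by strand is not given in the sources used here. Aldoc (chr11:78322968-78327781, plus strand) had the largest difference of the 10 genes, with 430 CPM in CTX and 18.1, 7.43 and 32.3 in LGE, MGE and CGE high-Nestin cells. Its high-Dcx levels were 17.7, 0.774, 0.486 and 0.699 CPM. The level of the CTX high-Dcx cells lay inside the range of the high-Nestin cells, yet within each library Aldoc was 15.3 to 46.2 times higher in high-Nestin cells (log2 difference 4.59, SE 0.22, edgeR adjusted p = 0.0001643).

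Tpi1 and Pgk1 follow in the pathway. Tpi1 (chr6:124810586-124814296, minus strand), the isomerase, was at 534 CPM in CTX and 321, 295 and 312 in LGE, MGE and CGE high-Nestin cells, against 257, 82.2, 78.7 and 73.7 CPM in high-Dcx cells. The gap was 2.07-fold in CTX and 3.75-fold to 4.23-fold in the eminences (log2 difference 1.66, SE 0.19, edgeR adjusted p = 0.001102). Pgk1 (chrX:106187100-106203699, plus strand), the kinase of the first ATP-yielding step, was at 21.9, 29.1, 22.5 and 25.1 CPM in high-Nestin cells and at 11.3, 14.9, 10.4 and 11.4 CPM in high-Dcx cells. It showed nearly the same ratio in each library, 1.93 to 2.20 (log2 difference 0.95, SE 0.13, edgeR adjusted p = 0.001832). Its level was low for this pathway, and the near copy Pgk1-rs7 was listed with 2 UMIs. Reads that fit several copies may go uncounted, so the level of Pgk1 is uncertain.

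The enolases moved in opposite directions. Eno1 (chr4:150236721-150248879, plus strand), the widespread form, had 566 CPM in CTX and 356, 294 and 355 in LGE, MGE and CGE high-Nestin cells, and 195, 117, 117 and 152 CPM in high-Dcx cells. The ratio was 2.34 to 3.04 (log2 difference 1.33, SE 0.09, edgeR adjusted p = 0.000247), and the near copy Eno1b held 157 UMIs against 30534 of Eno1. Eno2 (chr6:124760053-124769673, minus strand), the neuronal form, was the rarest of the 10 genes, at 1.71 CPM in CTX, 1.59 in LGE and 0.40 in MGE high-Nestin cells and with no UMI in CGE high-Nestin cells, where 3 UMIs would be 1.98 CPM. In high-Dcx cells it rose to 9.22 CPM in CTX and 5.77, 3.47 and 5.53 in LGE, MGE and CGE. It was 6.21-fold lower in high-Nestin cells (log2 difference -2.63, SE 0.43, edgeR adjusted p = 0.003752).

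Pkm (chr9:59656368-59679375, plus strand), which encodes muscle-type pyruvate kinase, was the most abundant of the 10 genes and the one with the smallest called difference. It had 1733, 1132, 1121 and 1046 CPM in high-Nestin cells of CTX, LGE, MGE and CGE, and 1027, 722, 683 and 585 CPM in high-Dcx cells. The ratio stayed between 1.57 and 1.79 in the 4 libraries (log2 difference 0.65, SE 0.06, edgeR adjusted p = 0.0005662). Its alternative exons give PKM1 and PKM2, which gene counts do not separate.

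The lactate dehydrogenases took different courses. Ldha (chr7:46841475-46855627, plus strand) was at 864 CPM in CTX and 477, 457 and 579 in LGE, MGE and CGE high-Nestin cells and at 255, 62.0, 56.6 and 67.5 CPM in high-Dcx cells. It fell 3.38-fold in CTX and 7.69-fold to 8.58-fold in the eminences (log2 difference 2.62, SE 0.25, edgeR adjusted p = 0.0006993). Ldhb (chr6:142490249-142507957, minus strand) was at 277, 505, 410 and 296 CPM in high-Nestin cells and at 501, 407, 515 and 369 CPM in high-Dcx cells. Those ranges overlapped, with a higher level in high-Dcx cells of 3 libraries and a lower one in LGE (log2 difference -0.39, SE 0.18, edgeR adjusted p = 0.1176). Without the LGE library Ldhb was called higher in high-Dcx cells (log2 difference -0.59, adjusted p = 0.02723).

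Isozyme composition differed between the classes in the same direction in all 4 libraries. UMIs at the 3′ end count molecules without regard to length, but capture can differ between genes, so shares of an isozyme are compared between classes. Ldhb made up 24.3% of the lactate dehydrogenase UMIs (Ldha and Ldhb) in CTX high-Nestin cells, 51.4% in LGE, 47.3% in MGE and 33.8% in CGE. In high-Dcx cells it made up 66.3%, 86.8%, 90.1% and 84.5%, so that Ldhb was the major form there in every region. The mean share rose from 39.2% to 81.9%, by 42.7 points (SD 6.29, n = 4 libraries, exact permutation test, two-sided, p = 0.13, the smallest p that 4 libraries allow).

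In points, the hexokinase share moved by a similar amount in each region, with a counting error larger than the spread between regions. Hk2 made up 62.5%, 57.1%, 53.2% and 48.5% of Hk1 and Hk2 UMIs in high-Nestin cells of CTX, LGE, MGE and CGE and 18.7%, 12.4%, 6.84% and 2.80% in high-Dcx cells. The mean difference was 45.2 points (SD 1.10, n = 4, exact permutation p = 0.13). The CGE high-Nestin share rested on 66 UMIs, with an interval of 36.0% to 61.1%. As a ratio of levels, Hk2 differed 4.36-fold in CTX and 16.6-fold in CGE. Eno2 remained a small part of enolase UMIs (Eno1 and Eno2), at 0.30%, 0.45%, 0.14% and 0% in high-Nestin cells, where 0 of 538 UMIs in CGE has an upper limit of 0.683%, and at 4.51%, 4.70%, 2.87% and 3.52% in high-Dcx cells. The Aldoc share of aldolase UMIs (Aldoa and Aldoc) was 64.2% in CTX high-Nestin cells and 4.58%, 3.79% and 10.1% in those of LGE, MGE and CGE, against 8.67%, 0.641%, 0.436% and 0.550% in high-Dcx cells. The Aldoc difference of 18.1 points had an SD of 25.1 points, with the largest difference by far in CTX.

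**Figure D2:**
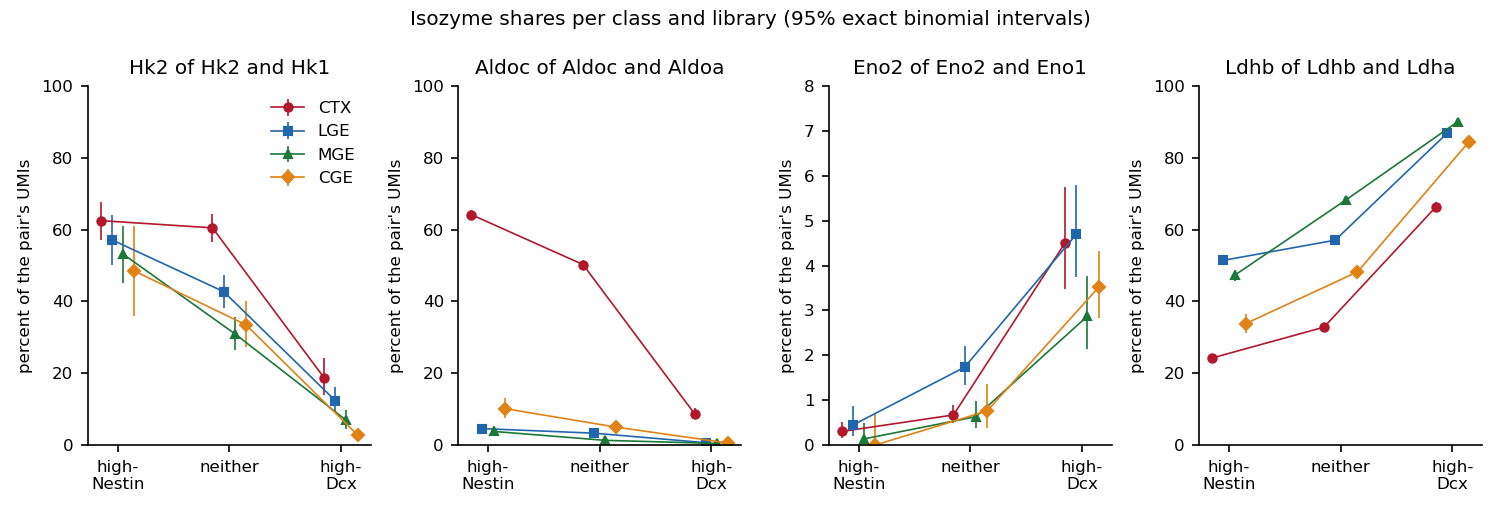
Share of UMIs of Hk2, Aldoc, Eno2 and Ldhb among the UMIs of their isozyme pair, in percent (the Eno2 panel has its own axis up to 8%), in high-Nestin cells, cells past neither gate and high-Dcx cells of each library, with exact binomial 95% intervals. The Ldhb share rises to between 66.3% and 90.1% in every library, the Hk2 share falls in every library, and the CTX library alone starts with a high Aldoc share (64.2%).

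Aldoc differed between regions far more than the others: in high-Nestin cells its highest library was 57.8 times its lowest, against 1.33 to 2.00 times for the 8 other genes with UMIs in every library. This is a description of 1 library per region, and the gene was chosen for this pattern. In high-Nestin cells the CTX level was 23.7 times that of LGE (95% interval 19.2 to 29.5), 57.8 times that of MGE (41.9 to 82.3) and 13.3 times that of CGE (10.03 to 18.0). The order was CTX, CGE, LGE and MGE, with CGE over LGE by 1.78 (1.23 to 2.55) and LGE over MGE by 2.44 (1.65 to 3.68), and each neighbour lay outside counting error of the next. Among cells past neither gate the order of CTX over the eminences was the same, with 242 CPM in CTX and 8.01, 1.51 and 9.31 in LGE, MGE and CGE. With no upper limit on genes per cell the CTX over CGE ratio was 8.004.

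At the level of single cells, 89.0% of CTX high-Nestin cells held an Aldoc UMI, against 10.1% in LGE, 4.86% in MGE and 15.8% in CGE. After each cell was thinned to 3000 UMIs the shares were 68.2%, 4.64%, 2.14% and 8.62%. Most CTX high-Nestin cells thus held an Aldoc UMI with and without thinning, and a minority of those of the eminences did. Emx1, a transcription factor of cortical progenitors, was counted in the same cells. It was detected in 71.1% of the 790 CTX high-Nestin cells with an Aldoc UMI and in 0 of 59, 0 of 25 and 0 of 26 such cells in LGE, MGE and CGE, shares with upper limits of 6.06%, 13.7% and 13.2%. Of the 98 CTX high-Nestin cells without an Aldoc UMI, 58.2% (47.8% to 68.1%) held Emx1, at a median depth of 6208 against 8672 UMIs. High-Nestin cells of the eminences without Aldoc held no Emx1 UMI either, so the zeros were not particular to cells with Aldoc.

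Aldoc UMIs also appeared in CTX barcodes of another cell type. Barcodes with over 20% of UMIs from red blood cell genes should lack Aldoc, yet 20 of 168 such barcodes in CTX (11.9%, 7.43% to 17.8%) held it, at a median of 1168.5 other UMIs per barcode. Whether free RNA or cell pairs put it there was not tested. No Aldoc UMI was found in the red-cell barcodes of the other libraries (0 of 61, 58 and 21 barcodes in LGE, MGE and CGE, shares with upper limits of 5.87%, 6.16% and 16.1%). The share of CTX high-Dcx cells with an Aldoc UMI was 13.0% (10.7% to 15.5%) at a median depth of 7915 UMIs (5.52% after thinning). It was not apart from the share of the red-cell barcodes, but the depths were unlike, so these shares cannot be compared. Per UMI, Aldoc stood at 134 CPM (96.3 to 182) of other UMIs in the CTX red-cell barcodes. In CTX high-Dcx cells it stood at 17.7 CPM (14.6 to 21.2). No expression of Aldoc in CTX high-Dcx cells is drawn from these values. The share of CTX high-Nestin cells, 89.0% at a median depth of 8479.5 UMIs, was far above that of CTX high-Dcx cells. Depth keeps it, too, from being set against the share of the red-cell barcodes. By level, CTX high-Nestin cells stood at 430 CPM (415 to 445), above both. In the eminences 0.538% of high-Dcx cells in LGE, 0.322% in MGE and 0.485% in CGE held an Aldoc UMI.

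**Figure D3:**
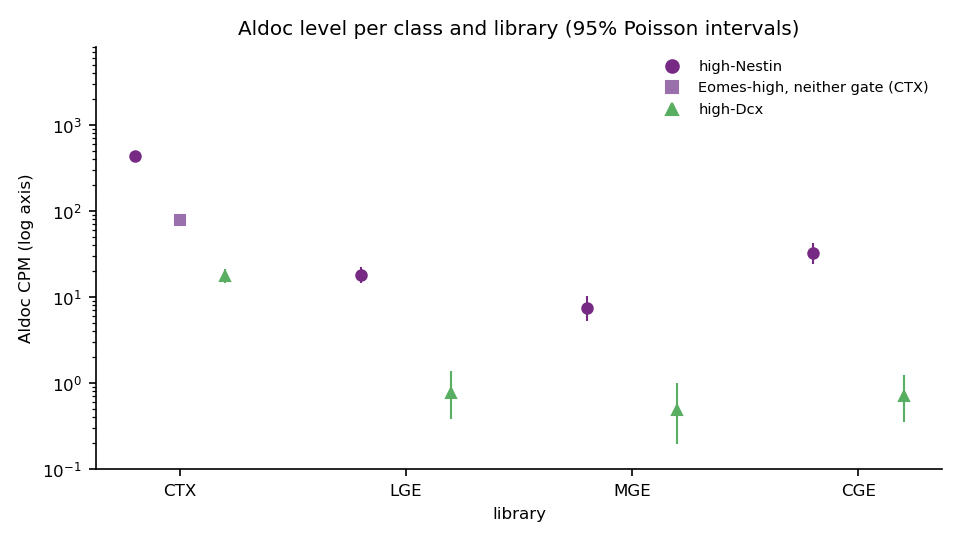
Aldoc level in CPM (log axis, exact Poisson 95% intervals) by library in high-Nestin cells, in CTX cells past neither gate with high Eomes and in high-Dcx cells. The CTX high-Nestin cells stand highest, at 430 CPM, and the CTX high-Dcx cells, at 17.7 CPM, stand near the high-Nestin cells of LGE, at 18.1 CPM.

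Other genes also had a CTX excess, of a smaller size. In high-Nestin cells CTX led the next region by 1.66 for Tpi1 (1.57 to 1.76), 1.59 for Eno1 (1.51 to 1.68), 1.53 for Pkm (1.48 to 1.58) and 1.49 for Ldha (1.39 to 1.60). These 4 genes were highest in CTX in high-Dcx cells as well, where CTX led by 3.78 for Ldha (3.50 to 4.09) and 3.13 for Tpi1 (2.90 to 3.38), with neighbours among the eminences not apart for either gene. In CTX red-cell barcodes Ldha stood at 370 CPM and Tpi1 at 200 CPM of other UMIs. Red blood cells use glycolysis themselves, so these values do not measure free RNA alone, and their part in the CTX high-Dcx levels was not tested. In high-Dcx cells CTX also led for Hk2, by 2.10 over LGE (1.35 to 3.27), for Aldoa, by 1.47 over CGE (1.37 to 1.58), and for Eno2, by 1.60 over LGE (1.13 to 2.25). In high-Nestin cells the order was different for Aldoa and Ldhb. Aldoa in high-Nestin cells was highest in LGE, by 1.32 over CGE (1.19 to 1.47), and Ldhb was highest in LGE, by 1.23 over MGE (1.16 to 1.31), and lowest in CTX and CGE, which were not apart. For Pgk1 and Hk2 no neighbouring regions lay apart in high-Nestin cells. The ends of the Hk2 order did differ, with CTX 1.68 times MGE. There Hk2 stood at 28.3 CPM (24.64 to 32.35) in CTX and 16.9 CPM (13.46 to 20.89) in MGE.

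Cortical intermediate progenitors were described last along this axis, with a choice of cells made after the values above were seen. Among CTX cells past neither gate, 513 were above 1.5 for Eomes, a transcription factor of these progenitors. Ldha stood at 482 CPM and Tpi1 at 362 CPM in them, both between the high-Nestin and the high-Dcx level of CTX. The Ldhb share of 46.4% lay between the classes as well, with Ldhb itself at 417 CPM.

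The other isozymes differed in their course in these cells. Eno2 was at 0.697 CPM (0.144 to 2.04), below its CTX high-Dcx level of 9.22 CPM and not apart from its high-Nestin level of 1.71 CPM. Aldoc was at 77.5 CPM with a share of 30.5% of aldolase UMIs, between the classes. Hk2 was at 16.0 CPM, between its CTX high-Nestin level of 28.3 CPM and its CTX high-Dcx level of 6.498 CPM. Its share was 76.7% (66.6% to 84.9%), against 62.5% (57.1% to 67.6%) in CTX high-Nestin cells. These intervals overlap, which does not show that the shares are alike. Hk1 was at 4.875 CPM (3.02 to 7.45), below its levels of 17.0 CPM in CTX high-Nestin and 28.3 CPM in CTX high-Dcx cells. Aldoa, at 177 CPM, was near its high-Dcx level of 186 CPM, and Pkm, at 1561 CPM, was nearer to its high-Nestin level of 1733 CPM.

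High-Nestin cells cycle more than high-Dcx cells, so the genes were also compared with Mki67, a marker of cycling cells, above 0.5 on the gate scale on both sides, or with no Mki67 UMI on both sides. The second restriction did not make the cycle alike, since 5 of 5 cell cycle genes tested were still higher in high-Nestin cells there, with a median log2 difference of 2.14. In the first, 2 of 6 were higher and 2 were lower, and the part of the cell cycle in the results was not tested. These fits share cells with the comparison above and are no independent evidence. Among cycling cells 8 of the 9 genes tested were higher in high-Nestin cells, where 20.2% of all genes tested were called higher and 19.3% lower. Of the 9, edgeR called 0 lower, also at an unadjusted p below 0.05. Eno2, the gene called lower above, did not pass the filter on low counts among cycling cells. The 0 therefore says nothing of Eno2, whose direction there was not tested. The log2 difference of Aldoc was 4.33 and that of Ldha 2.32. Among cells without Mki67, 8 of the 10 genes were higher and Eno2 was lower, where 25.2% of all genes tested were called higher and 25.9% lower, with log2 differences of 4.95 for Aldoc, 2.94 for Ldha and -2.34 for Eno2. In both, the genes called higher were Hk2, Aldoa, Aldoc, Tpi1, Pgk1, Eno1, Pkm and Ldha, and Ldhb was not called.

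Within high-Nestin cells, 6 of 9 genes tested were lower in cycling cells than in cells without an Mki67 UMI, and 0 were higher. They were Hk2 (log2 difference -0.86), Aldoa (-0.70), Ldha (-0.38), Eno1 (-0.36), Tpi1 (-0.33) and Pkm (-0.13), with edgeR adjusted p-values from 4.62e-09 for Aldoa to 0.03825 for Pkm, where edgeR called 8.62% of all genes tested lower and 8.15% higher. The count of 0 higher also held at an unadjusted p below 0.05 and with DESeq2. Aldoa stood at 343, 508, 297 and 359 CPM in the Mki67-negative high-Nestin cells of CTX, LGE, MGE and CGE, and Ldha at 1017, 615, 549 and 677 CPM. The median of the tested genes was -0.33, against -0.02 over all genes tested. Depth moved with this comparison, at medians of 8843 to 10318 UMIs in cycling and 7270 to 8504 UMIs in Mki67-negative cells, and 6 of the 9 genes were again called lower after every cell was thinned to 3000 UMIs. Of the markers of young neurons, 5 of 7 were lower in cycling cells, and their part in the result was not tested. With no library block none of the genes was called.

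Within high-Dcx cells, the cycling cells (Dcx gate with Mki67 and Ccnd2, without Mapt and Rbfox3) were compared with postmitotic cells (Dcx gate without Nes, Hes5, Mki67, Ccnd1 and Ccnd2) in LGE, MGE and CGE. CTX had 15 cycling high-Dcx cells, under the minimum of 20, and was left out. Depth moved with this comparison, at medians of 8927, 8956 and 10485 UMIs in cycling cells of LGE, MGE and CGE. In postmitotic cells the medians were 5891, 5929 and 6313 UMIs. After thinning to 3000 UMIs, 7 of the 10 genes were tested, with 2 called higher and 2 lower in cycling cells. Of 9 genes tested, 3 were higher in cycling cells (23.2% of all genes were) and 3 were lower (23.1% of all genes were). Ldha fell from 77.1, 71.6 and 110 CPM in cycling cells of LGE, MGE and CGE to 41.5, 42.6 and 55.3 CPM in postmitotic cells (log2 difference 0.98, SE 0.12, edgeR adjusted p = 0.000114). Tpi1 was higher in cycling cells too (log2 difference 0.97, edgeR adjusted p = 0.000998), as was Hk2 (2.59, edgeR adjusted p = 0.003734). The Hk2 call rested on few UMIs, with 17, 7 and 3 in cycling and 1, 5 and 6 in postmitotic cells of LGE, MGE and CGE. The intervals of its ratio included 1 in MGE (0.973 to 14.2) and CGE (0.839 to 24.3). The direction was opposite for Ldhb, at 282, 397 and 195 CPM in cycling and 498, 517 and 385 CPM in postmitotic cells (log2 difference -0.61, SE 0.12, edgeR adjusted p = 0.002077).

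Eno2 and Aldoa were higher on the postmitotic side. Eno2 stood at 1.14, 1.53 and 2.69 CPM in cycling and 10.1, 5.63 and 6.48 CPM in postmitotic cells (log2 difference -2.25, edgeR adjusted p = 0.003603). Aldoa was lower in cycling high-Dcx cells, at 69.4, 79.7 and 90.1 CPM against 131, 115 and 134 CPM (log2 difference -0.58, edgeR adjusted p = 0.002248), so that in these 3 libraries the cycling high-Dcx cells held less of it than both the postmitotic and the high-Nestin cells. Eno1, Pkm and Pgk1 were not called, at log2 differences of -0.09, 0.07 and 0.45. The Ldhb share of lactate dehydrogenase UMIs was 78.5%, 84.7% and 63.9% in cycling and 92.3%, 92.4% and 87.4% in postmitotic cells of LGE, MGE and CGE.

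**Figure D4:**
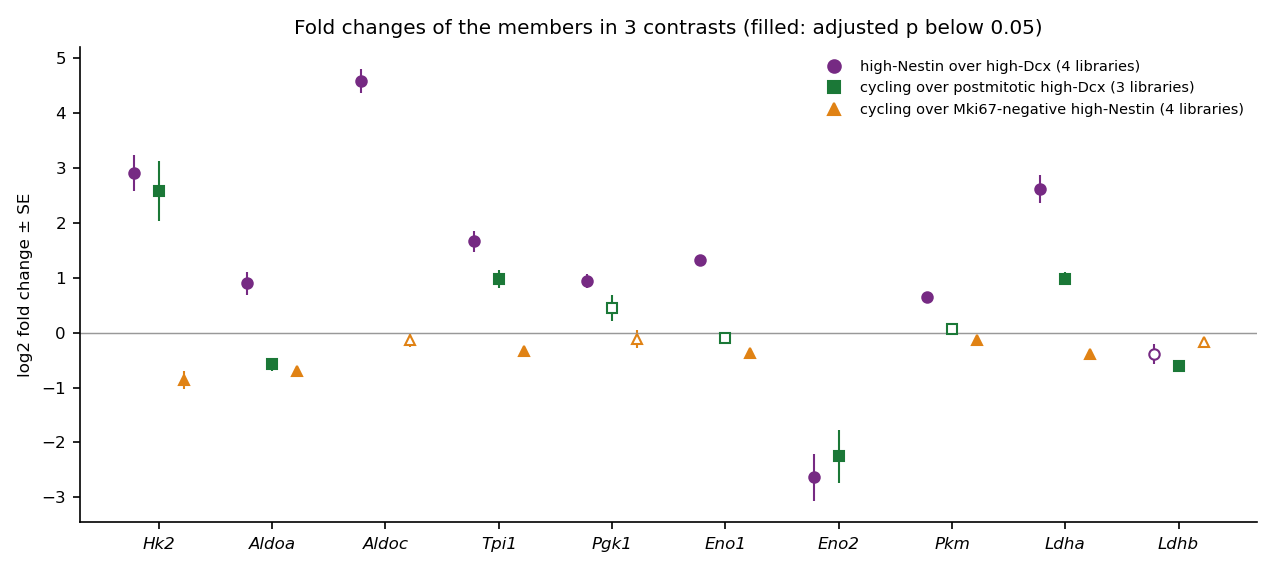
Log2 differences of the 10 genes with their standard errors in 3 comparisons: high-Nestin over high-Dcx cells, cycling over postmitotic high-Dcx cells (LGE, MGE and CGE), and cycling over Mki67-negative high-Nestin cells. Filled symbols have an edgeR adjusted p below 0.05. Aldoc (4.59), Hk2 (2.91) and Ldha (2.62) are largest in the first, and Eno2 (-2.63) is the lowest there.

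The other enzymes of the pathway moved in both directions. Of 26 further glycolysis genes listed, 14 passed the filter on low counts, 5 were higher in high-Nestin cells, 5 were lower and 4 were not called, with a median log2 difference of -0.49. Abundant enzymes were among the higher ones: Gapdh, which makes the first energy-rich intermediate, had a mean of 2857 against 1436 CPM (0.92, edgeR adjusted p = 0.0005689), and Pgam1, the mutase before enolase, had 721 against 325 CPM (1.05, edgeR adjusted p = 0.0002853). Gpi1, the isomerase of the second step, had 212 against 90.8 CPM (1.19, edgeR adjusted p = 0.001522). Phosphofructokinase, the committed step, split between its liver form Pfkl, at 109 against 56.0 CPM (0.86, edgeR adjusted p = 0.00257), and its muscle form Pfkm, at 22.7 against 38.8 CPM (-0.84, edgeR adjusted p = 0.01019). Below 20 CPM, Eno3 was higher in high-Nestin cells, and Pfkfb2 and Pfkfb4 were among the lower ones. Between cycling and postmitotic high-Dcx cells 13 of the listed genes were tested, with Gapdh (log2 difference 1.12), Gpi1 (0.46) and Pgam1 (0.24) higher in cycling cells and 5 lower, among them Hk1 (-1.19) and Pfkm (-0.76). Within high-Nestin cells 9 were tested, of which Pfkl (-0.57) and Gpi1 (-0.25) were lower in cycling cells and 7 were not called.

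Genes that move glucose, lactate and pyruvate were read from the same fit. Of 16 listed, 15 were tested, 7 were higher in high-Nestin cells and 3 were lower. Slc2a1, the main glucose importer GLUT1, had a mean of 44.9 against 12.3 CPM (1.80, edgeR adjusted p = 0.0003255), and Slc16a1, the lactate transporter MCT1, had 30.7 against 6.16 CPM (2.70, edgeR adjusted p = 0.006163). Mpc1, a subunit of the carrier that brings pyruvate into mitochondria, went the other way at 102 against 173 CPM (-0.85, edgeR adjusted p = 0.01177), as did its partner Mpc2 (-0.45, edgeR adjusted p = 0.01418). Bsg, the chaperone of the lactate transporters, was higher in high-Nestin cells by a small amount (0.23, edgeR adjusted p = 0.01832). Pyruvate dehydrogenase was divided, with Pdha1 higher (0.62) and Pdhb lower (-0.48) in high-Nestin cells. Within high-Nestin cells Slc2a1 was lower in cycling than in Mki67-negative cells, at means of 33.8 and 81.6 CPM (-1.31, edgeR adjusted p = 6.371e-06). Removing non-neural cells took the Mki67-negative cells of CTX, LGE, MGE and CGE from 268, 150, 127 and 70 to 264, 146, 123 and 68. The cycling cells went from 620, 435, 387 and 95 to 616, 435, 386 and 95. The part of non-neural cells in the Slc2a1 values was not tested.

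Genes known to be induced in low oxygen did not move as 1 group. Of 15 listed, 12 were tested, 5 were higher in high-Nestin cells, 2 were lower and 5 were not called, with a median log2 difference of 0.13. Egln3, an oxygen-sensing hydroxylase, had the largest difference, at a mean of 12.7 against 0.517 CPM (4.57, edgeR adjusted p = 0.0002429). Vegfa, the vascular growth factor, had 19.2 against 8.10 CPM (1.23, edgeR adjusted p = 0.005846), and Mif, P4ha1 and Higd1a were higher too. Bnip3, a mitophagy receptor, was lower in high-Nestin cells (-0.86, edgeR adjusted p = 0.01687), as was Hilpda (-0.47, edgeR adjusted p = 0.01383). Hif1a, which encodes the oxygen-regulated subunit, was not called, at means of 111 and 108 CPM.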

How the data were processed

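The authors deposited raw UMI counts, not normalized, for each gene and barcode of 4 droplet libraries, 1 per region. The file headers name Cell Ranger 3.0.2 and the submitters' processing notes name 3.0.0 and mm10. The annotation release and strand use are not given in the sources used here. Gene positions are those of GENCODE M21 on GRCm38, and promoters come from RefSeq on GRCm38.p6. The 10 genes, the other gene lists and the tests were chosen with earlier results of these data known, and all 10 genes are named. Of the other lists, genes with an adjusted p below 0.05 and at least 20 CPM in a class were to be named, as were the 5 genes most like Aldoc, Ldha and Eno2. Any further gene named was chosen after its values were seen.

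A barcode was kept if it had over 1500 and under 4500 detected genes, less than 5% of UMIs from mitochondrial genes and less than 1% from Hbb genes. Doublets were scored in each library by neighbours among simulated cell pairs (50 neighbours, 30 components, 2000 variable genes), and the highest scores were removed at 0.8% per 1000 barcodes. Levels are CPM of the summed UMIs of a class, with exact Poisson intervals, and shares carry exact Clopper-Pearson intervals. Intervals describe counting error alone. Red-cell barcodes were those with over 20% of UMIs from 8 red blood cell genes.

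Sums per library and class were tested with edgeR 4.0.16 in R 4.3.3 (quasi-likelihood test, TMM, filterByExpr, library block, Benjamini-Hochberg adjustment over all genes tested, threshold 0.05). The test was also run on counts simulated from the means and spread of these data. There it recovered 61.5% of 2-fold changes between high-Nestin and high-Dcx cells. Within high-Dcx cells it recovered 78.7%, and within high-Nestin cells 92.3%. Libraries with fewer than 20 cells in a class were left out of a test. Alternatives were DESeq2 1.42.0, library totals without TMM, no filter on low counts, no library block, gates above 1.0 and 2.0, cells thinned to 3000 UMIs, no upper gene limit, doublets kept, non-neural cells (3 or more genes of a non-neural list) removed, and each library left out. Leaving out cells with Emx1 for the Aldoc ratio was added after the data were seen.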

Additional observations from a re-analysis of the deposited data

Results flagged for a closer look

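The direction of Ldhb between the classes differed between libraries. Its high-Nestin level over its high-Dcx level was 0.552 in CTX, 0.795 in MGE and 0.803 in CGE, so that these libraries had more Ldhb in high-Dcx cells, and 1.24 in LGE, which had more in high-Nestin cells. Each region had 1 library, and the difference between regions was not tested.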

How the results depend on the processing

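The 8 genes called higher in high-Nestin cells stayed at 7 to 8 when 1 library was left out (7 without CGE, where Aldoa had a log2 difference of 0.84 and an edgeR adjusted p of 0.0609), and at 8 under the 10 other alternatives. The count of genes higher in high-Dcx cells was 0 with the gate above 2.0 and 0 after thinning to 3000 UMIs, since Eno2 did not pass the low-count filter there (edgeR tested 9 genes and found 0 at an unadjusted p below 0.05), and 1 to 2 with 1 library left out (2 without LGE, Ldhb being the second). Of the other glycolysis genes, 10 were called, 6 after thinning, where 9 were tested, and 7 to 11 with 1 library left out. No log2 difference of the 10 genes between the classes changed sign in any alternative.

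Within high-Nestin cells the 6 calls dropped to 0 with no library block (2 genes lower at an unadjusted p below 0.05), to 4 with no upper gene limit, to 5 with DESeq2, to 5 with no low-count filter and to 5 to 6 with 1 library left out, and rose to 7 with non-neural cells removed. Over all genes, that comparison gave 788 higher and 833 lower calls, 369 and 226 with DESeq2, 350 and 299 after thinning, and 267 and 29 with no library block. The 6 calls within high-Dcx cells became 5 to 6 with 1 library left out, 5 with no library block and 4 after thinning, where 7 genes were tested and Hk2, Aldoc and Eno2 were not, and the calls over all genes, 2546 higher and 2534 lower, became 1348 and 1197 after thinning. Library totals without TMM moved the median of all genes there from -0.02 to -0.12. The Aldoc ratio of CTX over CGE was 8.004 with no upper gene limit and 13.6 without cells that held Emx1. Both classes of a comparison come from the same libraries, so the library block is the pairing, and without it the 8 genes higher in high-Nestin cells and 1 higher in high-Dcx cells were also called.

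Depth limits Eno2, with 450 UMIs over all kept cells, Hk2 with 1360 and Pgk1 with 2253. Each region had 1 library of pooled embryos, so no difference between regions can be told apart from a difference between libraries.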

Other observations

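The genes whose pattern over the 8 sums (4 libraries, 2 classes) was most like that of a glycolysis gene were searched among 8468 genes at 20 or more CPM in at least 1 sum, by Pearson's r of log2(CPM + 1). The points share libraries and classes, so these are descriptions. The most like Ldha were Thop1 (0.994), Rabepk (0.992), Gja1 (0.991), Tpi1 (0.988) and Mrpl16 (0.988), so that Tpi1 was the only other of the 10 genes among them. The most like Aldoc were Nfatc4 (0.986), Mipep (0.981), Ndufa10 (0.981), Tnfrsf19 (0.978) and Fam135a (0.976). Pearson's r does not measure the size of a change. Over the 8 sums Ndufa10 lay between 182 and 232 CPM, and Aldoc between 0.486 and 430 CPM. The most like Eno2 were Ppp3cb (0.988), Loh12cr1 (0.983), Mknk2 (0.982), Upp2 (0.982) and Dok4 (0.982).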
